A study of Homo sapiens with 6 samples.

Results

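The genes described here are 10 members of the ADP-ribosylation machinery in T47D, a breast cancer cell line of luminal type that expresses the estrogen receptor: PARP9 and its partner DTX3L, PARP14, PARP10, PARP12, ZC3HAV1, PARP1, PARP2, TNKS and TNKS2. They were taken by symbol from 27968 annotated genes, and their 20 annotated transcripts from 70006. One group of 3 libraries came from cells given a control siRNA, and the other group of 3 from cells given an siRNA against HOTAIR-N, named for the long noncoding RNA HOTAIR. Every library came from unmodified T47D cells in RPMI medium with serum that were transfected with RNAiMAX and lysed 48 hours later, and the design text gives each library its own transfection. All results thus come from 1 cell line, 1 time and 1 targeting siRNA, whose sequence the sources used here do not state.

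Poly(ADP-ribose) polymerases move ADP-ribose from NAD onto proteins or nucleic acids. PARP1 and PARP2 build chains of it at broken DNA and the tankyrases TNKS and TNKS2 on partners such as axin, while PARP10, PARP12 and PARP14 attach single units. PARP9 works in a complex with the ubiquitin ligase DTX3L, and ZC3HAV1 encodes ZAP, an antiviral protein that binds CpG-rich RNA. PARP9, DTX3L, PARP10, PARP12, PARP14 and ZC3HAV1 are known as interferon-inducible genes, whereas PARP1, PARP2 and the tankyrases are housekeeping genes.

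The libraries held 31777001 to 36707169 expected counts, that is, RSEM's estimates of the reads per gene. CPM are counts relative to library size after TMM scaling, and before that scaling 1 CPM stood for 31.8 to 36.7 counts. HOTAIR was at 34.7% of control (16.3 ± 0.3 against 5.65 ± 0.0242 CPM, SD, n = 3, edgeR quasi-likelihood adjusted p = 2.1e-09). All 9 luminal markers were detected, with summed TPM (a level per transcript length and library size) of 9089 to 10306 in the control libraries and 8197 to 9059 in the others. Of these 9, 6 fell, where 34.8% of all tested genes were called lower: ESR1 to 32.1% of control, PGR to 36.4%, KRT18 to 65.8%, EPCAM to 77%, FOXA1 to 80.4% and GATA3 to 80.6%. CDH1 rose 1.86-fold, and KRT8 and KRT19 were not called. The part of these markers in the results on the members was not tested. Replicate 2 of the controls and replicate 3 of the HOTAIR-N siRNA group stood apart within their groups, with 6.64 to 8.56 as the chi-square per degree of freedom against their partners and 2.15 and 2.3 between the other libraries of each group. Markers of leukocytes (4 of 5), endothelium (3 of 3) and fibroblasts (3 of 4) stayed under 1 TPM in every library, with CD68 and COL1A1 as the exceptions. In bulk RNA a change in the number of expressing cells and a change in RNA per cell cannot be told apart.

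Promoter windows from RefSeq (GRCh38.p14, 250 bases before to 50 bases after an annotated start) were found for 8 of the 10 members, in 9 windows, and not for PARP10 and TNKS. Each was searched on both strands for GAAA, any 2 bases and GAAA again, the core of the interferon-stimulated response element (ISRE) that complexes with IRF9 bind, and for TTCNNNGAA, the palindromic core of the gamma-activated site (GAS) that STAT dimers bind. The ISRE core stood in windows of PARP9, DTX3L, PARP14 and PARP12, and in 3.57% of all 35116 windows. The GAS core stood in those of PARP14, ZC3HAV1 and PARP2, and in 7.66% of all windows. The 2 patterns did not overlap in any of these windows. The windows of the 4 members below are shown because they carry these matches and belong to genes that rose, with the matches in capitals, 5′ to 3′ on the strand of the gene. For DTX3L it lies at chr3:122564088-122564387 (plus strand), for PARP14 at chr3:122680589-122680888 (plus strand), for PARP12 at chr7:140062902-140063201 (minus strand) and for ZC3HAV1 at chr7:139109671-139109970 (minus strand). In the sequence of PARP14 the first run of capitals is the GAS core and the second the ISRE core, in those of DTX3L and PARP12 the run is the ISRE core, and in that of ZC3HAV1 it is the GAS core.
DTX3L: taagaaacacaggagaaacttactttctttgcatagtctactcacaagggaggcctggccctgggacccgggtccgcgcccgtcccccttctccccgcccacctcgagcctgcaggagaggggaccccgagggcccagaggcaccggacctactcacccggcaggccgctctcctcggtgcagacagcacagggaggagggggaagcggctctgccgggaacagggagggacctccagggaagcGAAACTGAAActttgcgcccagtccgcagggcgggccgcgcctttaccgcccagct
PARP14: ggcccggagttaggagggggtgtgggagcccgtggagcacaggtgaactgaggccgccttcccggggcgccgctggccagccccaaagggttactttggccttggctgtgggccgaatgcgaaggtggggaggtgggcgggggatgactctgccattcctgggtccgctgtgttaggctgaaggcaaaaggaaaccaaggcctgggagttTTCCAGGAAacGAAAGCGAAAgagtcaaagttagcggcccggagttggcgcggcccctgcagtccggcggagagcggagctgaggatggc
PARP12: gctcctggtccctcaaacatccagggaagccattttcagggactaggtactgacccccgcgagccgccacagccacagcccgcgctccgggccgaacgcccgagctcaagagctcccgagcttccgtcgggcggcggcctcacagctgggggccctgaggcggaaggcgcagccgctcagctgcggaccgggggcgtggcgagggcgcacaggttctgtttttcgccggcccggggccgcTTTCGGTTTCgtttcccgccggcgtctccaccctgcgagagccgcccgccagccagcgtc
ZC3HAV1: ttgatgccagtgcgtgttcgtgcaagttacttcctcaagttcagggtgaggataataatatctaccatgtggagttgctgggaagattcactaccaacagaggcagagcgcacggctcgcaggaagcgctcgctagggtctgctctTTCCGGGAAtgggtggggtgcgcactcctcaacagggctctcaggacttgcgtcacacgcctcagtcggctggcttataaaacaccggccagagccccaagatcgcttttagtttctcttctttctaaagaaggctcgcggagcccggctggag
The ISRE core of DTX3L is shared with PARP9. From the PARP9 start with the window chr3:122564251-122564550 (minus strand) the genes point away from each other, and their windows overlap by 137 bases. The match at chr3:122564332-122564341 begins at position -6 from the start of DTX3L and at -41 from this start of PARP9, each read on the strand of its gene. A second annotated start of PARP9 has neither core in its window (chr3:122564735-122565034, minus strand). That start lies past the start of DTX3L, so transcription from it runs back across the DTX3L start and the genes overlap. In PARP12 the ISRE core begins at position -10, and in PARP14 the GAS and ISRE cores begin at -40 and -29. The windows of PARP1 and TNKS2 held neither core. A match is a string of letters and not evidence of binding.

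**Figure D1:**
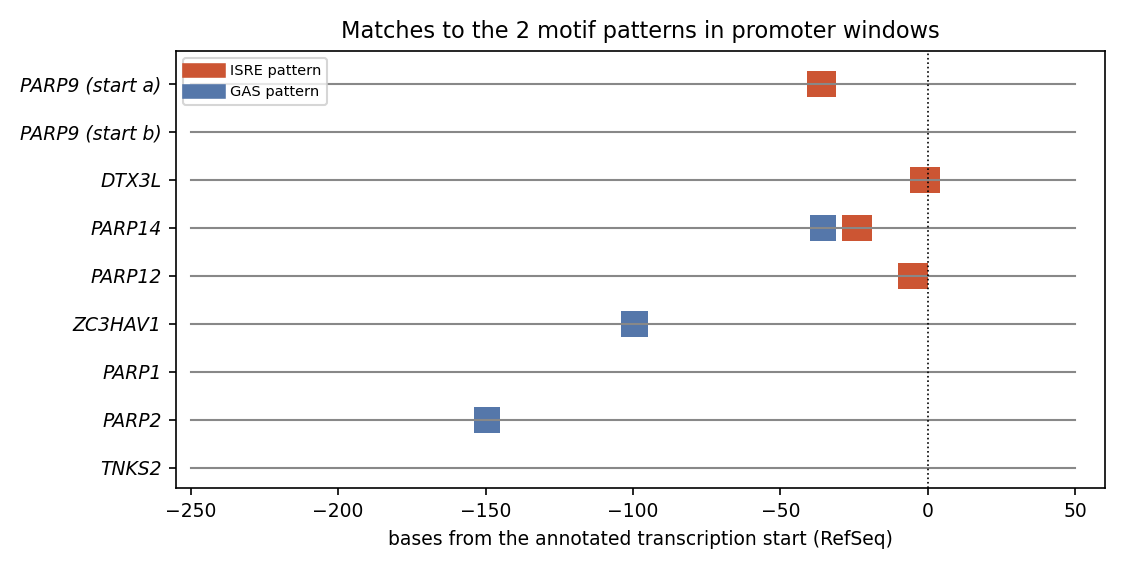
Positions of the ISRE core (red) and the GAS core (blue) in the 9 promoter windows, in bases from the annotated start (dotted line). The 4 ISRE matches begin between positions -41 and -6, whereas the GAS matches of ZC3HAV1 and PARP2 begin at -104 and -154.

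All 10 members passed the filter on low counts. After the HOTAIR-N siRNA 7 rose, 1 fell and 2 were not called by edgeR's quasi-likelihood test (threshold 0.05 on the adjusted p), which called 71.1% of the 14919 genes tested, 36.2% higher and 34.8% lower. A call alone therefore does not set a gene apart in this comparison. The size of the change differed more: 5 members (PARP10, PARP14, PARP9, DTX3L and PARP12) rose by at least 2-fold, as 8.91% of all tested genes did. The median log2 fold change was 1.06 over the members and 0.02 over all tested genes. The libraries of the 2 groups did not overlap for 9 members, TNKS being the exception, against 73.4% of all tested genes.

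**Figure D2:**
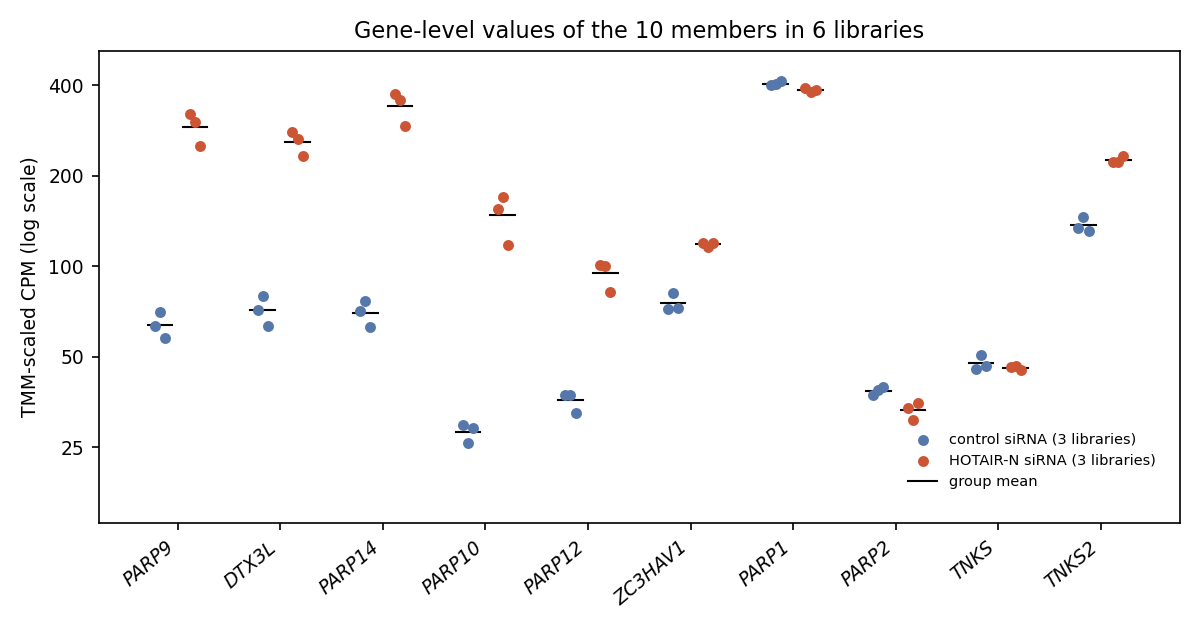
TMM-scaled CPM (log axis) of each member in the 3 control siRNA libraries (blue) and the 3 HOTAIR-N siRNA libraries (red), with the group mean as a line. The 5 members with the largest rises are 2.64-fold to 5.23-fold higher, and PARP1, PARP2 and TNKS lie close to their controls.

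PARP9, a catalytically inactive family member that reads ADP-ribose through macrodomains, rose 4.56-fold. Its level was 63.1, 70.6 and 57.6 CPM in control siRNA replicates 1, 2 and 3 and 320.5, 300.4 and 250.3 CPM in replicates 1, 2 and 3 with the HOTAIR-N siRNA (log2 change 2.19 with SE 0.09, adjusted p = 1.02e-09 by edgeR's quasi-likelihood test). All treated libraries lay above all control libraries. DTX3L, the ubiquitin ligase of the pair, rose 3.63-fold, from 71.6, 79.7 and 63.1 CPM to 279.9, 264 and 233 CPM (log2 change 1.86 with SE 0.08, adjusted p = 1.9e-09 by edgeR's quasi-likelihood test). In both genes replicate 3 was the lowest library of each group. Per length PARP9 exceeded DTX3L in every library, by 1.35, 1.36 and 1.41 times in TPM in the controls and by 1.9, 1.88 and 1.76 times after the HOTAIR-N siRNA, and this ratio did not overlap between the groups (two-sided exact permutation p = 0.1, the smallest that 3 against 3 libraries allow).

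PARP9 and DTX3L share some reads. Their expected counts were not whole in any library but summed to whole numbers, 4807, 5047 and 4214 in the controls and 21876, 18564 and 16692 after the HOTAIR-N siRNA, as they do when reads that match both genes are divided between them. These head-to-head genes lie on opposite strands, so dividing reads between them takes a count that ignores strand. The sources used here state no strand setting. The split is uncertain, and with it the fold of each gene and the ratio of PARP9 to DTX3L above, while their sum is not affected by it. Between DTX3L and PARP14 in the RefSeq order lies PARP15, another mono-ADP-ribosyltransferase gene, with at most 5 counts in any library and too few to test.

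PARP14, a macrodomain-bearing mono-ADP-ribosyltransferase first described as a cofactor of STAT6, rose 4.86-fold. It went from 71, 76.5 and 62.7 CPM in the 3 control libraries to 373, 357 and 292 CPM (log2 change 2.28 with SE 0.09, adjusted p = 7.5e-10 by edgeR's quasi-likelihood test). PARP10, a mono-ADP-ribosyltransferase found through its binding to MYC, had the largest fold of the 10, at 5.23. It was at 29.8, 25.9 and 29 CPM with the control siRNA and at 154.9, 169.85 and 118 CPM with the HOTAIR-N siRNA (log2 change 2.39 with SE 0.12, adjusted p = 3.4e-09 by edgeR's quasi-likelihood test). Its treated libraries had a SD of 26.7 around a mean of 148 CPM, and those of PARP14 a SD of 42.9 around a mean of 341 CPM. PARP12, a zinc-finger mono-ADP-ribosyltransferase, rose 2.64-fold, from 37.4, 37.5 and 32.6 CPM to 101, 100.3 and 82.3 CPM (log2 change 1.40 with SE 0.08, adjusted p = 2.2e-08 by edgeR's quasi-likelihood test).

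For these 3 genes, as for PARP9 and DTX3L, replicate 3 was the lowest of the HOTAIR-N siRNA libraries. Leaving out the lowest treated library raises a fold as a matter of course. Without it the log2 fold changes were 2.28 for PARP9, 1.92 for DTX3L, 2.38 for PARP14, 2.52 for PARP10 and 1.49 for PARP12. Without HOTAIR-N siRNA replicate 1 they were, in the same order, 2.11, 1.8, 2.21, 2.35 and 1.35, each smaller than with all libraries.

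**Figure D3:**
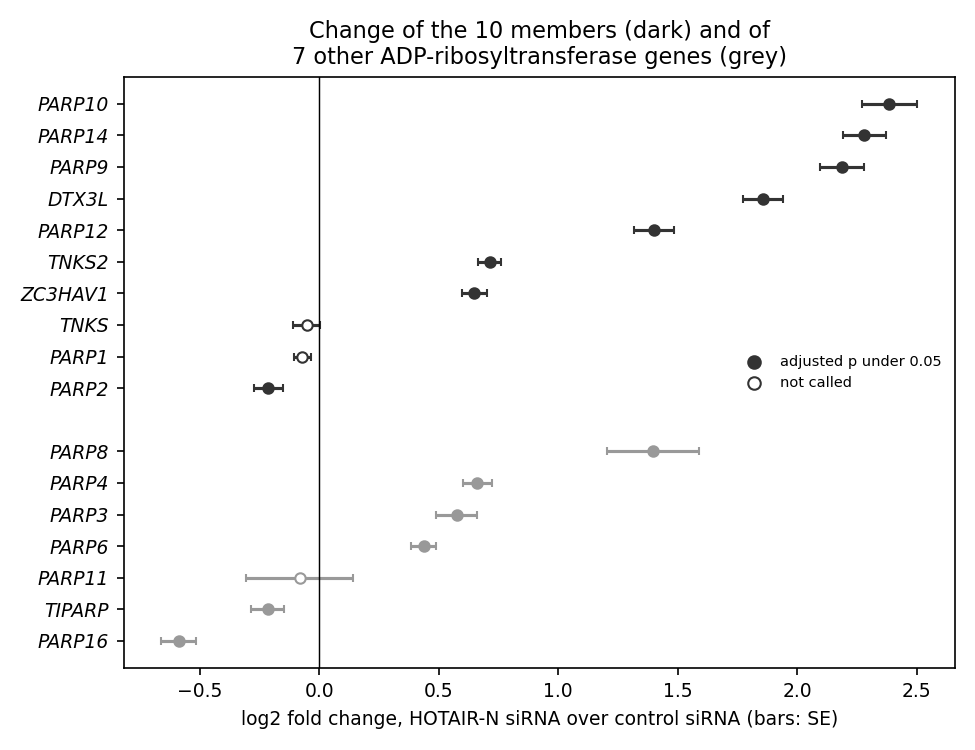
Log2 fold change (HOTAIR-N siRNA over control siRNA) with its standard error for the 10 members (dark) and for 7 other tested ADP-ribosyltransferase genes (grey), filled where the adjusted p was under 0.05. PARP10, PARP14, PARP9, DTX3L and PARP12 lie between 1.4 and 2.39, and the remaining members between -0.21 and 0.71.

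ZC3HAV1 rose 1.57-fold as a gene, and its short form rose far more than its long form. The gene was at 72.2, 81.3 and 72.5 CPM in the controls and at 119.3, 115.9 and 119.1 CPM after the HOTAIR-N siRNA, with no overlap (log2 change 0.65 with SE 0.05, adjusted p = 4.2e-07 by edgeR's quasi-likelihood test). The tables list 2 transcripts. NM_020119 is 7171 bases long and encodes the long form of ZAP (902 codons in 13 exons of the matching GENCODE 29 model). NM_024625 is 3182 bases long and encodes the short form (699 codons in 9 exons), which ends at a polyadenylation site inside the gene. The coding sequence of the short form, 2097 bases, lies within that of the long form but for 1 base. The short form thus lacks the PARP-like domain at the end of the long form, a domain without catalytic activity.

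The short form NM_024625 stood at 5.58, 5.7 and 5.92 TPM in control replicates 1, 2 and 3 and at 24.4, 22.7 and 20.4 TPM after the HOTAIR-N siRNA. It rose 3.87-fold in counts (log2 change 1.95 with SE 0.09, adjusted p = 7.4e-05 by edgeR's quasi-likelihood test over 32285 transcripts). The long form NM_020119 was at 16.6, 18.8 and 16.3 TPM in the controls and at 21.3, 21.3 and 23.2 TPM after the HOTAIR-N siRNA. It rose 1.25-fold in counts (log2 change 0.32 with SE 0.07, adjusted p = 0.018 by edgeR's quasi-likelihood test). The groups did not overlap for either form. The rise of the long form was not called without control replicate 1 (edgeR quasi-likelihood adjusted p = 0.068) or without control replicate 3 (adjusted p = 0.065).

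The deposited share of the short form in the TPM of ZC3HAV1 was 25.1%, 23.3% and 26.6% in the controls and 53.5%, 51.7% and 46.8% after the HOTAIR-N siRNA, so that both forms were about equally abundant per length. The ratio of long to short form fell from 2.98, 3.3 and 2.76 to 0.871, 0.936 and 1.14. In a limma test of log2 shares of reads over 24668 transcripts, which called 6.16% of them (3.27% higher and 2.89% lower), the share of the short form rose by 1.29 on the log2 scale (SE 0.10, limma adjusted p = 0.0058). That of the long form fell by 0.34 (SE 0.05, limma adjusted p = 0.033). The short form kept its call without any 1 of the 6 libraries (limma adjusted p = 0.015 to 0.032), whereas the long form lost it without each of them (limma adjusted p = 0.062 to 0.12) and with edgeR's diffSpliceDGE (adjusted p = 0.28). Most of the short form's coding sequence is also in the long form, so reads there are divided by RSEM's model. Because the mix moved to the shorter transcript, TPM of the gene rose more than its counts, from 23 ± 1.31 to 44.4 ± 1.08 (SD, n = 3).

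**Figure D4:**
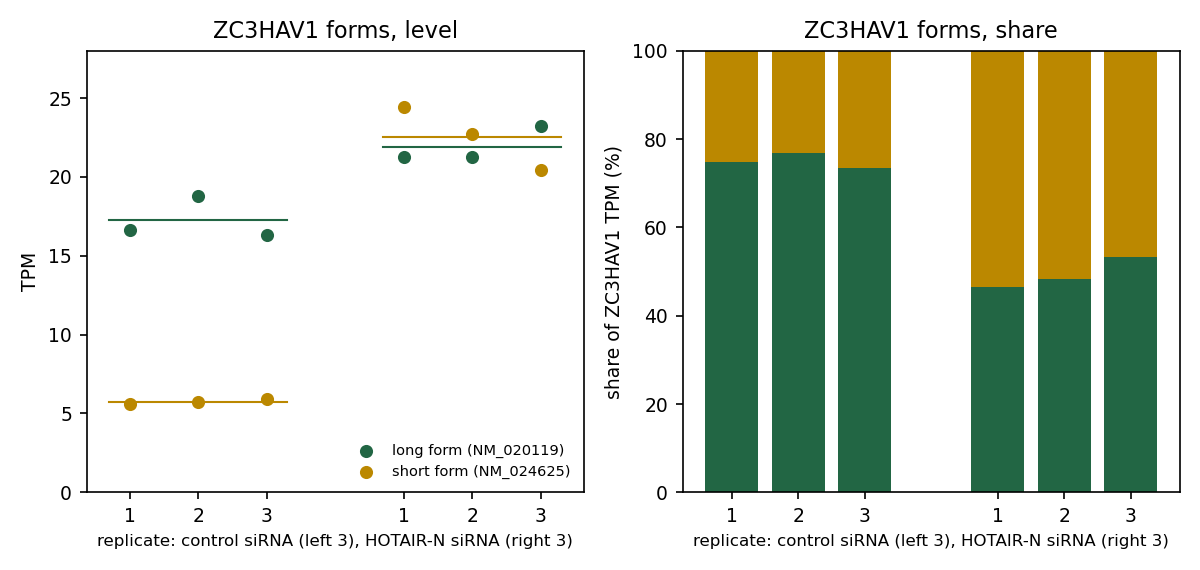
TPM of the long and short forms of ZC3HAV1 in each library with the group means as lines (left), and the share of each form in the TPM of the gene (right). The short form goes from 23.3% to 26.6% in the 3 control libraries to 46.8% to 53.5% in the 3 HOTAIR-N siRNA libraries.

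Of the 20 annotated transcripts of the 10 members, 18 were tested, 10 rose and 0 fell by edgeR's quasi-likelihood test, which called 32% of all transcripts, 15.4% higher and 16.6% lower. At an unadjusted p under 0.05, 1 was lower, and DESeq2 called 2 lower (those of PARP1 and PARP2) and limma-voom 0. DTX3L, PARP14, PARP1, TNKS and TNKS2 have 1 annotated transcript each. PARP9 has 6, of which NM_001146105 took most of the TPM in every library (59.1% to 64% in the controls and 60.9% to 65.6% after the HOTAIR-N siRNA). NM_001146106, the longest at 6801 bases, rose 3.24-fold, and its share of PARP9 went from 19.6%, 19.6% and 19.1% to 12.5%, 12.5% and 13.5% of TPM. Its share of reads fell by 0.50 on the log2 scale (SE 0.05, limma adjusted p = 0.01), a call lost without control replicate 1 (limma adjusted p = 0.0501) and with edgeR's diffSpliceDGE (adjusted p = 1). That call was also lost without both libraries that stood apart within their groups (limma adjusted p = 0.089). With the replicate number as a block it was lost too (limma adjusted p = 0.14). NM_001146102 rose 12.8-fold, from 5.36%, 10.3% and 4.62% to 17.2%, 16.7% and 20.8% of the TPM of PARP9. The shares did not overlap, but the change in share was not called (limma adjusted p = 0.074), except without control replicate 2 (limma adjusted p = 0.015) or without both libraries that stood apart (limma adjusted p = 0.037). The split of reads among PARP9 transcripts varied within groups. NM_001146103 had 15.7, 218.5 and 98.7 counts in the controls and 495.9, 494.9 and 368.7 after the HOTAIR-N siRNA. NM_031458 had 200.6, 0 and 142.1 counts, and then 0, 79.8 and 0. Neither was called. The fold and share of NM_001146102 depend on this split and are uncertain. In PARP10 and PARP12 1 transcript held at least 93% of the TPM in every library.

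PARP1, which makes most of the poly(ADP-ribose) at broken DNA, was the most abundant member in both groups and was not called. It was at 399, 403 and 411 CPM in the controls and at 391, 379 and 384 CPM after the HOTAIR-N siRNA (log2 change -0.07 with SE 0.04, adjusted p = 0.09 by edgeR's quasi-likelihood test). The libraries did not overlap, and the 95% interval of the fold, from the standard error and the 11.8 degrees of freedom of edgeR's test, ran from 0.901 to 1.004. Without both libraries that stood apart within their groups it was called lower (log2 change -0.09, adjusted p = 0.011 by edgeR). With library totals alone as the scaling its log2 fold change was 0.03.

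PARP2, which shares the role of PARP1 at broken DNA, fell to 86.3% of control. It was at 37.4, 38.9 and 39.7 CPM in the controls and at 33.8, 30.9 and 35.2 CPM after the HOTAIR-N siRNA, again with no overlap (log2 change -0.21 with SE 0.06, adjusted p = 0.0077 by edgeR's quasi-likelihood test). It was the only member that fell. The call was lost with library totals alone (log2 change -0.11, adjusted p = 0.11 by edgeR) and against a fold of 1.2 (edgeR adjusted p = 0.75). Nearly all of its reads went to NM_001042618, at 41.7 ± 0.864 and 37.1 ± 2.49 TPM (SD, n = 3), whose own change was not called (edgeR quasi-likelihood adjusted p = 0.072) except when replicate 3 of the HOTAIR-N siRNA was left out (adjusted p = 0.0495) and with DESeq2 (adjusted p = 0.014).

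The tankyrases differed from each other. TNKS2 rose 1.64-fold, from 134, 146 and 131 CPM to 221, 221 and 232 CPM, with the treated libraries all above the controls (log2 change 0.71 with SE 0.05, adjusted p = 6.8e-08 by edgeR's quasi-likelihood test). TNKS was at 45.4, 50.7 and 46.6 CPM in the controls and at 46.1, 46.5 and 45 CPM after the HOTAIR-N siRNA, with overlap (log2 change -0.05 with SE 0.06, adjusted p = 0.42 by edgeR's quasi-likelihood test). The 95% interval of its fold ran from 0.886 to 1.0495, and its sign changed with upper-quartile scaling or library totals alone. The ratio of TNKS2 to TNKS in TPM was 4.57, 4.44 and 4.35 in the controls and 7.41, 7.36 and 7.95 after the HOTAIR-N siRNA (two-sided exact permutation p = 0.1, the smallest possible). Unlike PARP9 or PARP14, TNKS2 was highest in HOTAIR-N siRNA replicate 3.

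Per length, the order of the members changed. In the controls PARP1 stood first at 194 ± 1.99 TPM (SD, n = 3), followed by PARP2 at 42.3 ± 1.02, TNKS2 at 41.2 ± 2.34, PARP9 at 32.1 ± 3.27, DTX3L at 23.4 ± 2.78, ZC3HAV1 at 23 ± 1.31, PARP12 at 18.1 ± 1.49, PARP14 at 17 ± 1.73, PARP10 at 15.4 ± 1.17 and TNKS at 9.26 ± 0.525 TPM. The ranges of PARP2 and TNKS2, of DTX3L and ZC3HAV1, and of PARP12, PARP14 and PARP10 overlapped with their neighbours in that order. After the HOTAIR-N siRNA PARP1 was still first at 189 ± 2.33 TPM and PARP9 second at 160.3 ± 20.2 TPM. DTX3L at 86.7 ± 7.61, PARP14 at 84.6 ± 10.4, PARP10 at 82.4 ± 14.8 and TNKS2 at 69 ± 2.12 TPM came next, each overlapping with its neighbour among these 4. PARP12 at 48.9 ± 5.34 and ZC3HAV1 at 44.4 ± 1.08 TPM overlapped as well, and PARP2 at 37.2 ± 2.5 and TNKS at 9.11 ± 0.13 TPM came last.

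The summed TPM of the 10 members went from 414, 427 and 407 to 851, 833 and 751. PARP1 made up 46.7 ± 1.51% of this sum in the controls and 23.3 ± 1.64% after the HOTAIR-N siRNA (SD, n = 3). The 6 interferon-inducible members made up 31 ± 1.56% and 62.4 ± 3.11% (SD, n = 3).

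**Figure D5:**
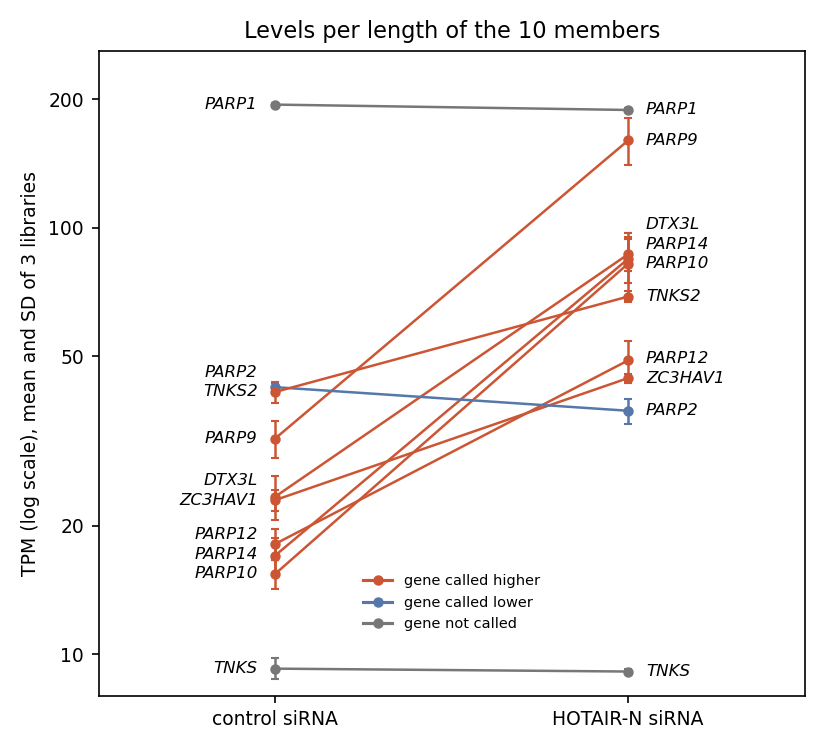
Mean TPM with SD (n = 3, log axis) of each member with the control siRNA and the HOTAIR-N siRNA, coloured by the call at gene level. PARP9 moves from the fourth to the second place behind PARP1, and PARP2 from the second to the ninth.

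The genes whose log2 CPM were most like those of a member over the 6 libraries, among the 12357 that averaged at least 1 on that scale, were IFIT1, PARP14 and DDX58 for PARP9 (Pearson r = 0.9999, 0.9998 and 0.9998) and IFIT1, PARP9 and HLA-DRA for PARP14 (r = 0.9999, 0.9998 and 0.9998). IFIT1 and DDX58, which bind viral RNA, rose 11.7-fold and 4-fold, and HLA-DRA, an antigen-presenting chain, rose 8.96-fold. For ZC3HAV1 they were MED13, DDX59 and SLC25A37 (r = 0.9994, 0.9994 and 0.9993), which rose 1.49-fold, 1.29-fold and 1.3-fold. With 2 groups of 3 libraries these values mostly record the step between the groups.

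Of the other ADP-ribosyltransferase genes 7 of 8 were tested, 4 rose and 2 fell, with a median log2 fold change of 0.44. Called genes made up 85.7% of those tested, against 71.1% of all tested genes (36.2% higher and 34.8% lower). PARP4, the enzyme of vault particles, rose 1.58-fold (26.2 to 41.4 CPM), PARP6 rose 1.35-fold and PARP8 2.63-fold, the last from only 0.577 to 1.53 CPM. PARP16, which is anchored in the endoplasmic reticulum, fell to 66.5% of control. TIPARP, a target of the aryl hydrocarbon receptor, fell to 86.1% (edgeR quasi-likelihood adjusted p = 0.015). TIPARP was not called when HOTAIR-N siRNA replicate 1 or 2 was left out (adjusted p = 0.051 and 0.067), or with library totals or upper-quartile scaling (adjusted p = 0.14 and 0.058). All of these changes were smaller than those of PARP9, PARP14 and PARP10.

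Among 12 genes that signal with PARP9, DTX3L and PARP14 in the interferon and STAT pathways, 7 rose, 4 fell and 1 was not called, with a median log2 fold change of 0.54. That is 91.7% called, against 71.1% of all tested genes. IRF9, the DNA-binding subunit of the ISRE complex, rose 3.13-fold (19.1 to 59.7 CPM), its partner STAT2 2.55-fold, and STAT6, the partner of PARP14, 2.14-fold. IRF1, a transcription factor of the interferon response, lay outside the naming rule and was chosen after its values were seen. It rose 2.80-fold (5.53 to 15.5 CPM). The kinase gene JAK1 fell to 65.4% of control, and the receptor genes IFNGR2 and IFNAR2 to 68% and 78.9%. The genes of the partner chains of these receptors, IFNGR1 and IFNAR1, rose 1.66-fold and 1.26-fold. They too lay outside the naming rule and were chosen after their values were seen. JAK2 was at 83.1% (edgeR quasi-likelihood adjusted p = 0.018), a call lost without control siRNA replicate 2 (adjusted p = 0.052) or HOTAIR-N siRNA replicate 1 or 2 (adjusted p = 0.053 and 0.05), under library totals or upper-quartile scaling (adjusted p = 0.1 and 0.05) and with DESeq2 (adjusted p = 0.056).

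A list of 11 genes that holds removers of ADP-ribose and HPF1 was split, with 3 higher, 4 lower and a median log2 fold change of 0.04. Of this list 63.6% were called, against 71.1% of all tested genes. MACROD1, which removes single ADP-ribose units, fell to 44% of control (23.9 to 10.5 CPM), and PARG, which degrades the chains, to 79% (106 to 83.8 CPM). ADPRHL1 fell to 71.2%. NUDT16, GDAP2 and ENPP1 rose 1.17-fold, 1.17-fold and 1.23-fold.

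Of 9 tested genes that act with PARP1 and PARP2 in the repair of single-strand breaks, 2 rose and 5 fell, with a median log2 fold change of -0.15. The share called was 77.8%, against 71.1% of all tested genes. The flap endonuclease gene FEN1 fell to 75.4% of control (256 to 193 CPM), the ligase gene LIG1 to 75.9% and TDP1, which frees DNA ends from trapped topoisomerase, to 71.9%. The polymerase gene POLB rose 1.4-fold, and CHD1L, a remodeler activated by poly(ADP-ribose), 1.23-fold.

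Of 16 partners and substrates of the tankyrases, 8 rose and 5 fell, with a median log2 fold change of 0.13. Calls covered 81.25% of them and 71.1% of all tested genes. The angiomotin-like gene AMOTL2 rose 2.26-fold (48.7 to 109.8 CPM), LNPEP, an aminopeptidase of glucose transporter vesicles, 1.82-fold and the golgin partner gene BLZF1 1.65-fold. Those that fell were GMDS, an enzyme of GDP-fucose synthesis, to 34% of control, TNKS1BP1 to 58.7%, the scaffold gene AXIN1 to 66.5%, SH3BP2 to 71.9% and the telomere gene TERF1 to 79%. AXIN2, the inducible paralog of AXIN1, was chosen after its values were seen and rose 3.29-fold from 0.354 to 1.18 CPM.

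Of 19 tested cofactors of ZAP and RNA decay genes, 6 rose and 8 fell, with a median log2 fold change of 0.03. With 73.7% called, this list lay near the 71.1% of all tested genes. The decapping enzyme gene DCP2 rose 2.3-fold (72.5 to 167 CPM), while that of its activator DCP1A fell to 47.7% of control (35.9 to 17.1 CPM). KHNYN, an endonuclease cofactor of ZAP, rose 1.43-fold, and TRIM25, the ubiquitin ligase that ZAP needs, 1.16-fold. The exosome gene EXOSC9 fell to 77.1%, and EXOSC4 and DIS3 rose 1.21-fold and 1.19-fold. N4BP1, a paralog of KHNYN, stood at a log2 change of 0.13 (adjusted p = 0.042 by edgeR) that was not called when any 1 of 5 libraries was left out (adjusted p = 0.058 to 0.15), the exception being control siRNA replicate 2, or with DESeq2 (adjusted p = 0.11), DESeq2 size factors (adjusted p = 0.062) or no filter (adjusted p = 0.14).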

How the data were processed

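RNA of 6 T47D libraries, 3 per siRNA, was made into stranded libraries without ribosomal RNA, per the labels' protocols. STAR 2.6.0c, RSEM 1.3.0 and hg19 appear in the submitters' processing notes, with no settings. Per the file headers, the deposited tables give expected counts, TPM and FPKM per gene and transcript, and the share of each transcript in its gene as a percent. Groups follow the sample titles.

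Expected counts were rounded, filtered (filterByExpr, minimum count 10, total 15), scaled by TMM and tested with edgeR 4.0.16's quasi-likelihood test (R 4.3.3), with Benjamini-Hochberg adjustment over all genes or transcripts and a threshold of 0.05. Shares of reads (0.5 counts added, mean gene count at least 50) were tested with limma 3.58.1. Replicates are independent transfections, and every pair differed beyond sampling noise. TPM were not rescaled.

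Counts were simulated from the mean counts and library sizes of this comparison, with the same spread for all genes and 50 planted changes of each size. With 14782 genes tested, 6% of 1.2-fold, 66% of 1.5-fold, 92% of 2-fold and 98% of 4-fold changes were recovered, with 5 false calls. For transcripts 46% of 1.5-fold and 74% of 2-fold changes were recovered. Few changes were planted, whereas 71.1% of genes were called in the data, so these rates do not describe what this comparison could detect. The share test (24190 transcripts) recovered 97% of 200 planted switches with 28 false calls. Each transcript's counts were drawn separately there, without any division of shared reads. That rate therefore does not cover errors of such division in the share calls above.

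The members and lists were chosen with earlier results of these data known. Named genes are all members, the 4 smallest p-values of each further list, members that went against their list, and the 3 genes most like PARP9, PARP14 and ZC3HAV1. IRF1, IFNGR1, IFNAR1, AXIN2 and, among the markers of other cell types, CD68 and COL1A1 were chosen after their values were seen. All luminal markers are named. Alternatives were other scalings, DESeq2 1.42.0, limma-voom, filters, the replicate number as a block, left-out libraries and stricter tests. Same-numbered libraries did not pair (r = -0.04, -0.21 and -0.12 across genes).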

Additional observations from a re-analysis of the deposited data

How the results depend on the processing

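The 7 higher members kept that call under every alternative. The count of members lower was 1, and 0 with library totals alone or against a 1.2-fold change, and 2 with both libraries that stood apart left out (control replicate 2, HOTAIR-N replicate 3). Among transcripts the count lower was 0, 2 with DESeq2 and 0 to 1 with 1 library left out. Shares called (1 higher, 2 lower) were 0 and 0 with a replicate block, 1 and 0 with diffSpliceDGE or at an adjusted p under 0.01, 2 and 0 without that pair, and 1 to 2 and 0 to 1 with 1 library left out.

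The replicate block, whose numbers do not pair the libraries, gave 7 members higher and 1 lower at gene level, 9 transcripts higher, and 37 shares higher and 53 lower of all (806 and 714 without it). With it the short form of ZC3HAV1 had a log2 change in share of 1.29 (limma adjusted p = 0.11). In no pair of same-numbered libraries was the correlation of deviations above 0.1, and no library correlated best with its own number.

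Library totals alone moved the median log2 fold change of all genes from 0.02 to 0.12 and the share of calls that were higher from 51% to 60.3%. Against a 1.2-fold change 3564 genes were higher and 3312 lower (5407 and 5198 otherwise). Transcript calls (4967 higher, 5360 lower) were 2761 and 3458 with the block, 3298 and 3712 against a 1.2-fold change and 2809 and 3400 at an adjusted p under 0.01. Share calls were 290 and 274 with diffSpliceDGE, 259 and 262 at an adjusted p under 0.01, 381 and 429 without the pair, and 485 to 623 and 473 to 648 with 1 library left out.

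Signs that turned belonged to log2 changes that were not called. With library totals alone these were PARP1 (0.026), TNKS (0.046), DTX2 (0.070), NM_001618 (0.026) and NM_003747 (0.046), and with upper-quartile scaling TNKS (0.0048) and DTX2 (0.030). With 1 library left out the values ran from -0.125 to 0.024 for DTX2, -0.079 to 0.00029 for NM_003747, -0.56 to 0.15 for NR_130117, -1.99 to 1.23 for the share of NM_001317895 and -0.59 to 1.24 for that of NM_001146103. Without the pair NR_130117 (0.0998) and NM_003747 (0.013) turned, while the share of NM_001146103 was 1.28. That share turned with diffSpliceDGE (-0.18) and that of NM_001317895 with an offset of 0.1 (0.75). The order of TPM kept all 10 places with FPKM and 8 to 10 with 1 library left out. Depth limits the minor transcripts: NM_005484, NR_130117 and NM_001317895 averaged under 50 counts in each group.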

Other observations

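Genes of NAD synthesis, which supply the substrate of these enzymes, were split, with 3 of 8 tested higher, 3 lower and a median log2 fold change of 0.04. Calls were made for 75% of them, against 71.1% of all tested genes. NAMPT, the rate-limiting enzyme of NAD salvage, rose 1.64-fold (78.4 ± 6.22 to 128 ± 5.34 CPM, SD, n = 3). The neuronal isoenzyme gene NMNAT2 rose 1.63-fold (8.81 to 14.4 CPM) and NMRK1, a kinase for nicotinamide riboside, 1.3-fold, while NMNAT1, the nuclear isoenzyme, fell to 66.4% of control (14 to 9.3 CPM). NMRK2 and NNMT were too low to be tested.

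Of the 4 paralogs of DTX3L, 3 rose, where 36.2% of all tested genes were called higher. DTX3 rose 1.83-fold (20.3 to 37.1 CPM), DTX4 2.09-fold (2.7 to 5.66 CPM) and DTX1 1.86-fold from only 0.434 to 0.807 CPM. DTX2 stood at a log2 change of -0.03 (adjusted p = 0.8 by edgeR), whose sign changed with upper-quartile scaling, library totals alone or 1 library left out.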
